A study of Mus musculus with 20 samples.

Results

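The comparison of spleen myeloid cells from B16F10-bearing and healthy mice covered 3883 gene sets, each with 1 enrichment result in the authors' deposited tables. Its members were all sets listed in the pair of enrichment reports on these groups, 1 report for each direction, and no set was left out by a measured value. They were all 3883 of the 3883 sets that the series lists for each myeloid comparison. The series holds 20 RNA-seq libraries, of which 4 entered this comparison: 2 from the spleens of healthy adult C57BL/6 mice and 2 from the spleens of adult C57BL/6 mice bearing B16F10 tumours. Libraries from other groups used below are 3 each from the bone marrow of healthy and B16F10-bearing mice and 2 from the spleens of YUMM3.3-bearing mice of the same strain, all prepared in the same way. B16F10 cells descend from a spontaneous melanoma of a C57BL/6 mouse. The cells of all groups were obtained by removing CD3e-positive cells, CD3e being a chain of the T cell receptor complex, so "myeloid" here means the cells that this depletion left behind. B cells, erythroid precursors, platelets and stromal cells are not removed by it. Tumour site, time after implantation and the number of animals per library are not given in the labels used here. Nothing says that the libraries of a group came from separate animals.

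The spleen filters blood and holds large B and T cell areas beside a red pulp rich in macrophages and red cells. In the mouse it also remains a site of blood cell formation, and in tumour-bearing mice it is known to take up immature granulocytic and monocytic cells and to expand red cell production. Gene set enrichment analysis asks, for a list of genes ordered by their difference between groups, whether the genes of a named set lie near either end of the list. The normalized enrichment score (NES) is the height of the running sum for a set, scaled to that of permuted data so that sets of different size can be set side by side. The leading edge is the part of the set that lies before the peak of the running sum.

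All scores below carry the sign that makes a positive NES higher in B16F10-bearing spleen and a negative NES higher in healthy spleen. The deposited signs ran the other way, and the direction rests on taking each report to hold what was higher in the group its title names first. A reversal of both report names together could not be seen from these files. "Rose" and "fell" are used only for sets at a deposited false discovery rate q under 0.05. The smallest nominal p above 0 in the authors' deposited tables was 0.00103, whereas 4 libraries in 2 groups of 2 allow only 6 groupings and no one-sided share under 0.167. The q therefore does not measure the spread between libraries, and no value per library, SD or depth was available to set against it. In bulk RNA of this kind a change in the number of cells of a type and a change in RNA per cell cannot be told apart.

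Of the 3883 sets, 643 rose in B16F10-bearing spleen, 16.6% of those listed, and 62 fell, 1.6% of those listed. Scores leaned to the tumour-bearing side as a whole: 2900 sets (74.7%) had a positive NES, and the median NES was 1.09. The range ran from -2.56 to 2.94. The sets held 15 to 483 ranked genes with a median of 44. Sets that rose were larger, with a median of 61 genes, than sets that fell, with a median of 36 genes. By size, 10.1% of sets of 15 to 24 genes rose and 24.5% of sets of 100 to 199 genes rose, while the share that fell was 1.77% and 0.578% in these classes. By source, 19.4% of the signatures from experiments rose and 0.915% fell, against 14.7% and 1.90% of Reactome pathways. Biocarta pathways, most of them short maps of receptor signalling, went the other way, with 2 of 128 rising, 10 falling and a median NES of -1.05.

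**Figure D1:**
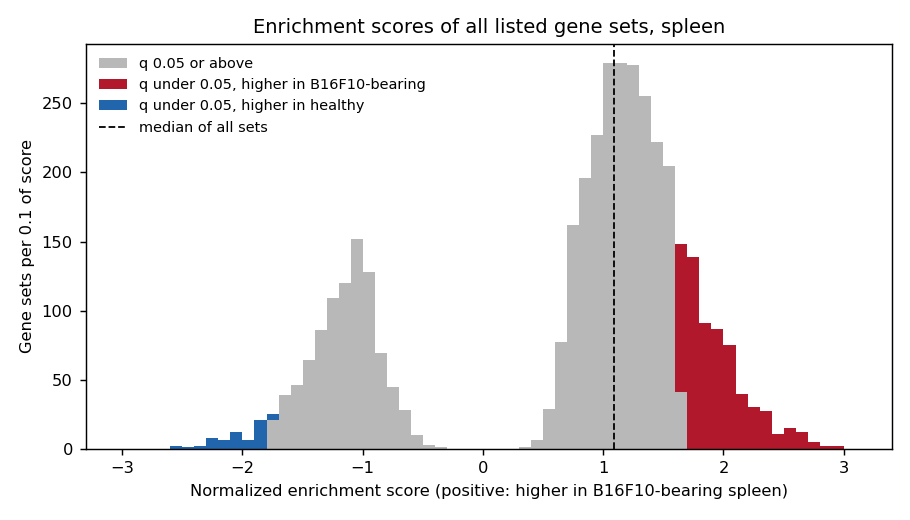
Histogram of the normalized enrichment score (x axis, no unit; positive is higher in B16F10-bearing spleen) of 3883 gene sets, as the number of sets in each 0.1 of score (y axis). Red marks the 643 sets that rose, blue the 62 that fell, grey the rest, and the dashed line the median of 1.09; no set lies near 0, as a score takes the largest deviation of the running sum.

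The leading sets in B16F10-bearing spleen were signatures of dividing cells. In the authors' deposited table the highest score was 2.94, for ROSTY_CERVICAL_CANCER_PROLIFERATION_CLUSTER, 123 genes that move together in proliferating tumours. Its leading edge in the authors' deposited table held 75% of its genes within the first 7% of the ranked list. SOTIRIOU_BREAST_CANCER_GRADE_1_VS_3_UP, a tumour grade signature dominated by cell cycle genes, followed at 2.91 in the authors' deposited table, and KONG_E2F3_TARGETS, targets of a transcription factor that opens S phase, stood at 2.84. These 3 signatures came from tumours or cultured cells of other tissues and are known for their mitotic and S phase genes.

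Among the lists drawn up from set names, DNA replication and S phase moved most uniformly: 17 of 18 sets rose, none fell, and the median NES was 2.10 against 1.09 over all sets. The authors' deposited table gave REACTOME_DNA_REPLICATION a score of 2.36, with 70% of its 113 genes in the leading edge. For REACTOME_ASSEMBLY_OF_THE_PRE_REPLICATIVE_COMPLEX, the loading of the replicative helicase on origins, the authors' deposited table gave 2.24 and a leading edge of 85% of 59 genes. That set peaked at the rank it shares with KEGG_PROTEASOME, described below, so its leading edge cannot be read as helicase loading genes alone. In the list of G1 and entry into S phase, 8 of 10 sets rose (median NES 1.93), among them REACTOME_G1_S_SPECIFIC_TRANSCRIPTION at 2.06 in the authors' deposited table. In the list of G2, mitosis and chromosome segregation, 23 of 30 rose (median 1.94), led by REACTOME_CELL_CYCLE_MITOTIC at 2.23 and including REACTOME_MITOTIC_SPINDLE_CHECKPOINT at 2.17 in the authors' deposited table. No set of these 3 lists fell. Of 38 experimental proliferation and E2F signatures, 23 rose and none fell, with scores from -1.09 to 2.94.

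DNA repair sets followed at a lower level: 19 of 57 rose (33.3% against 16.6% of all sets), none fell, and the median NES was 1.47. REACTOME_ACTIVATION_OF_ATR_IN_RESPONSE_TO_REPLICATION_STRESS, the checkpoint kinase response to stalled forks, stood at 2.09 (q = 7.91e-05), and PID_ATR_PATHWAY at 2.07 in the authors' deposited table. Targets of MYC and MYCN, transcription factors of growth and ribosome production, gave 11 of 31 higher (35.5%) and none lower. YU_MYC_TARGETS_UP stood at 2.40 in the authors' deposited table. Several signatures named for other processes had leading edges of the same reach. BURTON_ADIPOGENESIS_3 (NES 2.78) and BURTON_ADIPOGENESIS_PEAK_AT_24HR (2.56) come from preadipocytes, which divide before they differentiate, and each had 71% of its genes within the first 7% of the list in the authors' deposited table. Whether these 2 scores come from genes of dividing cells was not tested. The adipogenesis list as a whole gave 12 of 31 higher (38.7% against 16.6% of all sets) and none lower. EGUCHI_CELL_CYCLE_RB1_TARGETS and KANG_DOXORUBICIN_RESISTANCE_UP had 91% and 87% of their genes in the leading edge in the authors' deposited table, within the same 7% of the list.

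Of 23 chromatin and histone pathways only 3 rose (13% against 16.6% of all sets) and none fell, with a median of 0.91. Those 3 were REACTOME_ORC1_REMOVAL_FROM_CHROMATIN (2.19), REACTOME_NUCLEOSOME_ASSEMBLY (2.00) and a Reactome set of E2F targets under the repressors p107 and p130 (1.92) in the authors' deposited table. The first of them also peaked at the shared rank described below. The 31 sets of polycomb and H3K27 methylation targets gave 3 higher and none lower, a share of 9.68% against 16.6% of all sets. KAMMINGA_EZH2_TARGETS, genes that follow the methyltransferase EZH2 in blood stem cells, led them at 2.41 with 69% of its genes within the first 7% of the list in the authors' deposited table.

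**Figure D2:**
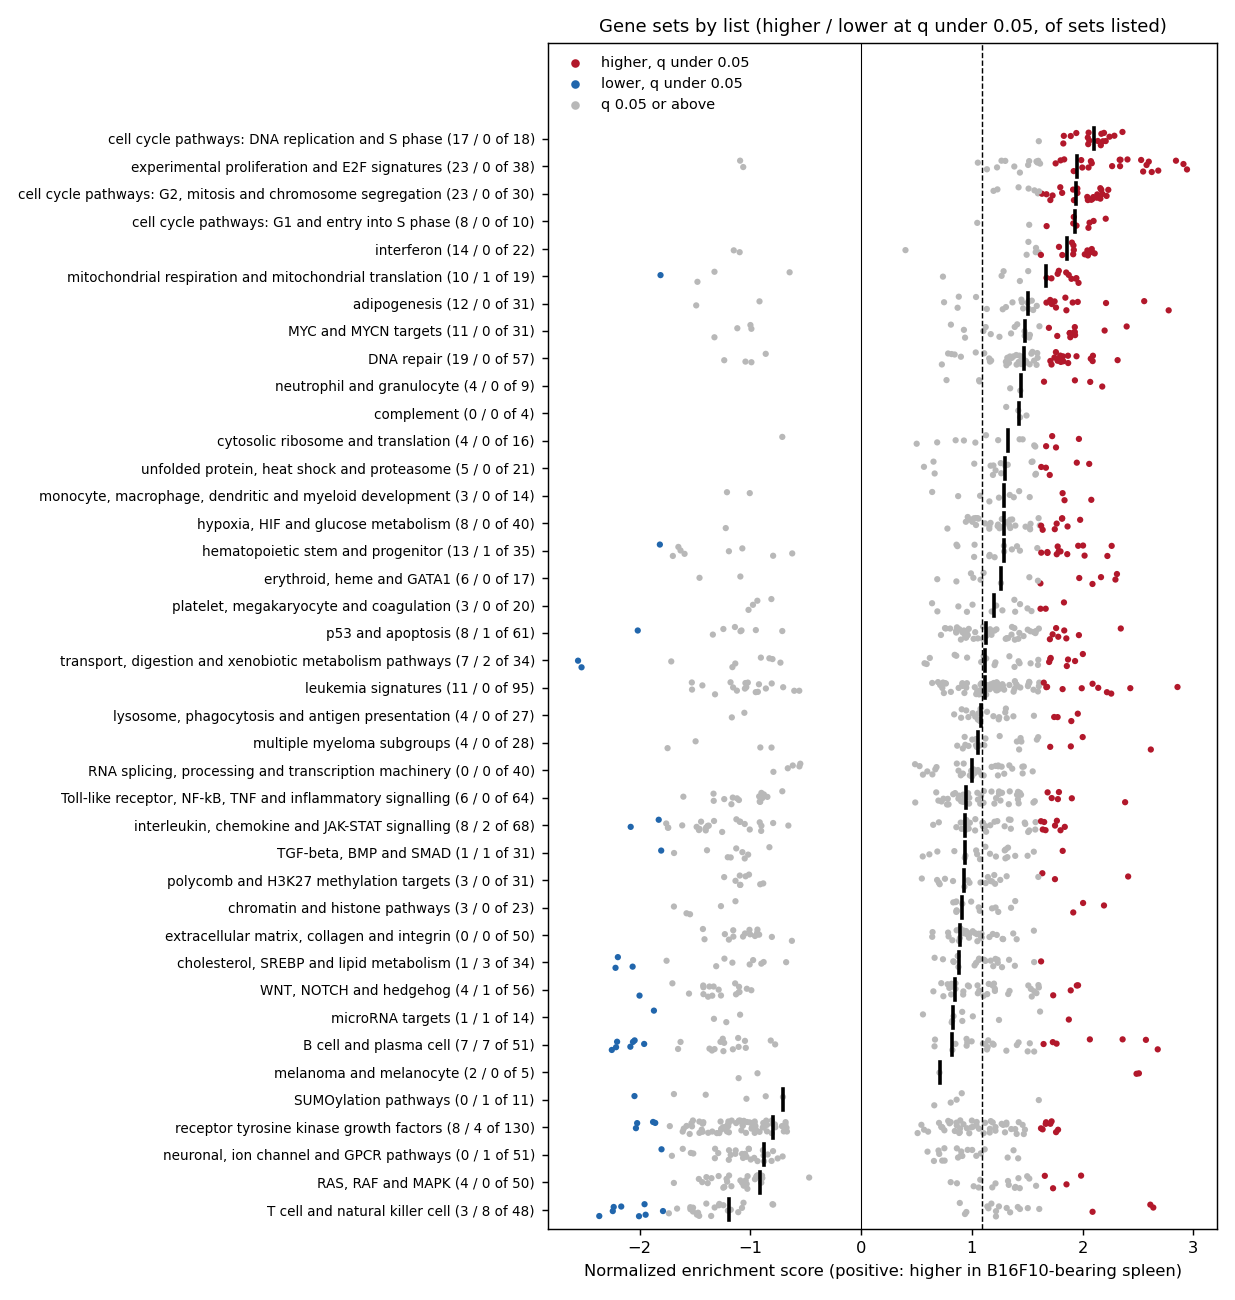
Normalized enrichment score (x axis, no unit) of each set (point) in 40 lists made from set names (y axis), ordered by median (black bar); numbers after a name are sets that rose, sets that fell and sets listed. Red points rose, blue fell, grey did neither, and the dashed line is the median over all 3883 sets; the replication list sits highest at 2.10 and the T cell list lowest at -1.19.

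A larger share of the interferon sets rose (63.6%) than of any list outside the cell cycle and proliferation. Interferons are antiviral cytokines that switch on a shared group of genes in most cell types, and 14 of 22 such sets rose and none fell, with a median NES of 1.86. HECKER_IFNB1_TARGETS stood at 2.11 and REACTOME_INTERFERON_ALPHA_BETA_SIGNALING at 2.09 in the authors' deposited table. Their leading edges were a minority of each set, 39% and 25%, within the first 11% and 9% of the list in the authors' deposited table. REACTOME_INTERFERON_GAMMA_SIGNALING, the arm driven by T and natural killer cells, was near the threshold at 1.62 (q = 0.048) in the authors' deposited table. ZHANG_INTERFERON_RESPONSE, a set of 16 genes, had the fullest leading edge of the interferon sets named here, at 69% in the authors' deposited table.

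Other inflammatory lists were near or under the background. Of 64 sets of Toll-like receptor, NF-kB, TNF and inflammatory signalling, 6 rose (9.38% against 16.6% of all sets) and none fell, and the median of 0.95 was under that of all sets. Among the 6 that rose were ALTEMEIER_RESPONSE_TO_LPS_WITH_MECHANICAL_VENTILATION (2.38) and NEMETH_INFLAMMATORY_RESPONSE_LPS_UP (1.90), both responses to endotoxin, in the authors' deposited table. Of the 6, 1 peaked at the shared rank described below. The receptor map KEGG_TOLL_LIKE_RECEPTOR_SIGNALING_PATHWAY scored 0.78 and q = 0.872 in the authors' deposited table. Of 68 interleukin, chemokine and JAK-STAT sets, 8 rose (11.8% against 16.6%) and 2 fell (2.94% against 1.6% of all sets). PID_IL12_STAT4_PATHWAY (-2.08) and BIOCARTA_IL12_PATHWAY (-1.83), the cytokine route that drives T helper 1 cells, were the 2 that fell in the authors' deposited table. BAKER_HEMATOPOIESIS_STAT3_TARGETS (1.80) and WIERENGA_STAT5A_TARGETS_GROUP1 (1.84), targets of factors downstream of myeloid growth factors, rose in the authors' deposited table.

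Sets that describe granulocytes rose where they concern granule contents and their regulators. LIAN_NEUTROPHIL_GRANULE_CONSTITUENTS, 23 genes for the enzymes and peptides packed into granules during granulocyte maturation, scored 2.07 (q = 0.00013) with 65% of its genes in the leading edge in the authors' deposited table. KAMIKUBO_MYELOID_CEBPA_NETWORK, genes under the granulocyte factor C/EBP alpha, stood at 2.18 with the same share of 65% in the authors' deposited table. REACTOME_NEUTROPHIL_DEGRANULATION, a broad catalogue of 395 granule and membrane proteins, rose to 1.93 with 39% of its genes in the leading edge in the authors' deposited table. In all, 4 of 9 neutrophil and granulocyte sets rose (44.4% against 16.6% of all sets), none fell, and every one of the 9 had a positive NES. REACTOME_ANTIMICROBIAL_PEPTIDES (1.88) also rose, with 20% of 51 genes in the first 5% of the list in the authors' deposited table.

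Monocyte, macrophage, dendritic and myeloid development sets gave 3 higher of 14 and none lower, a share of 21.4% that is near the 16.6% of all sets. BROWN_MYELOID_CELL_DEVELOPMENT_UP, genes that rise as a myeloid progenitor line differentiates, led at 2.08 in the authors' deposited table. FOSTER_TOLERANT_MACROPHAGE_UP (1.84), genes still induced when macrophages meet endotoxin again, also rose in the authors' deposited table. For the lysosome, a large part of a macrophage, KEGG_LYSOSOME gave 1.38 with q = 0.19 in the authors' deposited table. Of 27 sets on lysosome, phagocytosis and antigen presentation, 4 rose and none fell, a share of 14.8% that is near the 16.6% of all sets. REACTOME_CROSS_PRESENTATION_OF_SOLUBLE_EXOGENOUS_ANTIGENS_ENDOSOMES (1.96) and REACTOME_ANTIGEN_PROCESSING_CROSS_PRESENTATION (1.77) were among these 4 in the authors' deposited table, and both peaked at the shared rank described below.

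Of 17 erythroid, heme and GATA1 sets 6 rose (35.3% against 16.6% of all sets) and none fell. Their median NES was 1.26 against 1.09 over all sets. Of those named here, 2 had their leading edges within the first 2% of the list. WELCH_GATA1_TARGETS, 20 genes switched on by the erythroid factor GATA1, had 65% of its genes within the first 2% of the ranked list and scored 2.31 in the authors' deposited table. KEGG_PORPHYRIN_AND_CHLOROPHYLL_METABOLISM, which holds the heme synthesis enzymes, stood at 2.30 with 25% of 32 genes within the first 2% in the authors' deposited table. ADDYA_ERYTHROID_DIFFERENTIATION_BY_HEMIN (2.09) and RIZ_ERYTHROID_DIFFERENTIATION (2.17) rose too, with leading edges that reached to 9% and 7% of the list in the authors' deposited table. In the platelet, megakaryocyte and coagulation list 3 of 20 rose, a share of 15% that is near the 16.6% of all sets, among them TENEDINI_MEGAKARYOCYTE_MARKERS at 1.83 in the authors' deposited table. Erythroid precursors and platelets are not removed by the depletion, and their part in the other results was not tested.

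A series of mouse signatures that follows blood formation from stem cell to mature cell split by stage. IVANOVA_HEMATOPOIESIS_MATURE_CELL (229 genes) stood at 2.75 and IVANOVA_HEMATOPOIESIS_LATE_PROGENITOR (402 genes) at 2.26 in the authors' deposited table, both with q listed as 0. The intermediate progenitor set had 1.29 and the early progenitor set 0.87 in the authors' deposited table, and neither passed the threshold. IVANOVA_HEMATOPOIESIS_STEM_CELL_AND_PROGENITOR fell to -1.82 (q = 0.0444) in the authors' deposited table. The stem cell set gave -1.60, the long-term stem cell set -1.70 and the short-term stem cell set -1.65 in the authors' deposited table, with q from 0.0847 to 0.132. The scores went from positive for the late and mature stages to negative for the stem cell sets, with 3 of these 8 past the threshold.

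Over the whole list of 35 hematopoietic stem and progenitor sets, 13 rose (37.1% against 16.6% of all sets) and 1 fell (2.86% against 1.6%). EPPERT_PROGENITOR, a human progenitor signature, reached 2.22 and WANG_IMMORTALIZED_BY_HOXA9_AND_MEIS1_UP 2.02 in the authors' deposited table. Of 95 leukemia signatures, 11 rose and none fell, a share of 11.6% against 16.6% of all sets. GRAHAM_CML_DIVIDING_VS_NORMAL_QUIESCENT_UP (2.86), which compares dividing leukemic with resting normal progenitors, led this list in the authors' deposited table. ROSS_AML_OF_FAB_M7_TYPE (2.22), the megakaryoblastic type, and VALK_AML_CLUSTER_8 (2.26) were also among the sets that rose in the authors' deposited table. CHYLA_CBFA2T3_TARGETS_DN, genes lower when a corepressor of blood progenitors is lost, stood at 2.79 with 52% of 185 genes in the leading edge in the authors' deposited table.

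In the B cell and plasma cell list 7 of 51 sets rose and 7 fell, 13.7% in each direction, with a median NES of 0.82. Over all sets 16.6% rose and 1.6% fell, so the share that rose was under that of all sets and the share that fell was above it. The sets that fell were led by receptor signalling: KEGG_B_CELL_RECEPTOR_SIGNALING_PATHWAY stood at -2.25 with 52% of its 67 genes in the leading edge, and PID_BCR_5PATHWAY at -2.21, in the authors' deposited table. KEGG_PRIMARY_IMMUNODEFICIENCY, lymphocyte genes whose loss causes immune deficiency, had -2.20 with 67% of 33 genes in the leading edge in the authors' deposited table. The sets that rose were led by stages in which B cell precursors divide, HOFFMANN_LARGE_TO_SMALL_PRE_BII_LYMPHOCYTE_UP at 2.68 and MORI_LARGE_PRE_BII_LYMPHOCYTE_UP at 2.57 in the authors' deposited table.

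A series of mouse signatures of B cell stages showed the same division, as each stage has a set of genes higher there (UP) and a set lower there (DN). For the large pre-BII stage, in which precursors cycle, the UP set stood at 2.57 and the DN set at -1.85 in the authors' deposited table. For the pre-BI stage they stood at 2.36 and -1.87 in the authors' deposited table. For mature B lymphocytes the order was turned, with -1.96 for MORI_MATURE_B_LYMPHOCYTE_UP and 2.26 for MORI_MATURE_B_LYMPHOCYTE_DN in the authors' deposited table. MORI_IMMATURE_B_LYMPHOCYTE_DN rose to 2.75 while its UP partner had -1.32 and q = 0.316 in the authors' deposited table. The small pre-BII stage went the same way as the mature stage, with the DN set at 1.88 and the UP set at -1.35 (q = 0.302) in the authors' deposited table. The UP set of the large pre-BII stage and the DN sets of the immature and mature stages all peaked at rank 1164 of the list in the authors' deposited table, so these 3 sets share the last gene of their leading edges. MORI_PLASMA_CELL_DN, genes lower in plasma cells than at earlier B cell stages, fell to -2.41 with 72% of 29 genes in the leading edge in the authors' deposited table, and MORI_PLASMA_CELL_UP had 1.41 with q = 0.163. ZHAN_MULTIPLE_MYELOMA_PR_UP, the proliferation class of myeloma, had the fullest leading edge of the 643 sets that rose, with 92% of its 39 genes within the first 7% of the list and a score of 2.62, in the authors' deposited table.

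T cell and natural killer cell sets had the lowest median of the lists, -1.19. Of 48 sets 3 rose and 8 fell, and the share that fell was 16.7% against 1.6% of all sets. KEGG_T_CELL_RECEPTOR_SIGNALING_PATHWAY led at -2.37 with 47% of 99 genes in the leading edge, and PID_CD8_TCR_PATHWAY followed at -2.24, in the authors' deposited table. Outside this list of 48, 2 more T cell sets fell. ZHENG_FOXP3_TARGETS_IN_T_LYMPHOCYTE_DN, the DN set of targets of a regulatory T cell factor, stood at -2.25 with 71% of 28 genes in the leading edge in the authors' deposited table. REACTOME_GENERATION_OF_SECOND_MESSENGER_MOLECULES, the first steps after T cell receptor engagement, fell to -1.89 with the fullest leading edge of the 62 sets that fell, 80% of 25 genes, in the authors' deposited table. KEGG_NATURAL_KILLER_CELL_MEDIATED_CYTOTOXICITY gave -1.20 and q = 0.419 in the authors' deposited table. The 3 T cell sets that rose were LEE_EARLY_T_LYMPHOCYTE_UP (2.64), GAVIN_FOXP3_TARGETS_CLUSTER_P6 (2.61) and SASAKI_ADULT_T_CELL_LEUKEMIA (2.09) in the authors' deposited table, the first of them an early thymocyte signature. T cells should have been removed by the depletion in both groups, and the files hold no marker gene with which to see how complete it was. The part of residual lymphocytes in these results was not tested.

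Pairs of UP and DN sets from the same experiment showed how far a direction in a name carries over. Both members were listed for 701 pairs, and in 495 of them both leaned to B16F10-bearing spleen. In 31 pairs both members passed the threshold, 22 in the same report and 9 in opposite reports. Of the 9, 6 had the UP set higher in B16F10-bearing spleen, among them SHIPP_DLBCL_VS_FOLLICULAR_LYMPHOMA at 2.16 for UP and -2.12 for DN in the authors' deposited table. This pair compares a fast with a slow growing B cell lymphoma. PASQUALUCCI_LYMPHOMA_BY_GC_STAGE stood at 1.73 for UP and -2.11 for DN, and KANG_DOXORUBICIN_RESISTANCE at 2.60 and -1.87, in the authors' deposited table. NAKAMURA_CANCER_MICROENVIRONMENT had the widest gap of the 9 and ran the other way, -2.40 for UP and 2.14 for DN in the authors' deposited table. All 22 pairs that passed in the same report lay on the side of B16F10-bearing spleen, such as MARKEY_RB1_ACUTE_LOF with 2.55 and 2.07 in the authors' deposited table.

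Mitochondrial sets rose with leading edges that reached far into the list. Of 19 sets on mitochondrial respiration and translation, 10 rose (52.6% against 16.6% of all sets) and 1 fell (5.26% against 1.6%), with a median NES of 1.67. REACTOME_MITOCHONDRIAL_TRANSLATION had 1.96 with 67% of 81 genes before a peak at 29% of the list in the authors' deposited table. KEGG_OXIDATIVE_PHOSPHORYLATION had 1.85 with 66% of 85 genes before a peak at 28%, and REACTOME_RESPIRATORY_ELECTRON_TRANSPORT 1.79 with 81% of 68 genes before a peak at 34%, in the authors' deposited table. In all 3 most genes of the set lay before the peak, and the peak came deeper in the list than in the erythroid sets named above. REACTOME_TRANSCRIPTIONAL_ACTIVATION_OF_MITOCHONDRIAL_BIOGENESIS, which holds the regulators rather than the respiratory chain, fell to -1.81 in the authors' deposited table. It was near the threshold (q = 0.0429), with 34% of 44 genes in the leading edge. REACTOME_TRANSLATION rose to 1.97 with a peak at 33% of the list in the authors' deposited table. Of 16 sets on the cytosolic ribosome and translation, 4 rose (25% against 16.6% of all sets). None of 40 sets on RNA splicing, processing and transcription machinery passed in either direction. The highest of them, REACTOME_REGULATION_OF_MRNA_STABILITY_BY_PROTEINS_THAT_BIND_AU_RICH_ELEMENTS, had 1.55 (q = 0.0765) in the authors' deposited table.

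A block of Reactome pathways peaked at a single place in the ranked list. The ranks and percentages together allow a list of 14549 or 14550 genes, so that 1% is about 145 genes. Of the 643 sets that rose, 36 (5.60%) had their peak at rank 3429, and 35 of the 36 were Reactome pathways; the next most frequent peak rank was shared by 10. As each gene has 1 rank, these sets share the last gene of their leading edges. The remaining set was KEGG_PROTEASOME, with a score of 2.06 and 83% of 42 genes in the leading edge in the authors' deposited table. The proteasome is the complex that degrades ubiquitin-tagged proteins, and its subunits are listed in Reactome under many processes that end in such degradation. In the 36 sets the leading edge held 57% to 85% of the genes, and NES ran from 1.64 to 2.29. REACTOME_METABOLISM_OF_POLYAMINES (2.10), REACTOME_CELLULAR_RESPONSE_TO_HYPOXIA (1.75), REACTOME_INTERLEUKIN_1_SIGNALING, REACTOME_HEDGEHOG_LIGAND_BIOGENESIS (1.89) and REACTOME_HOST_INTERACTIONS_OF_HIV_FACTORS were among them in the authors' deposited table.

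That block bears on how the lists read. In the WNT, NOTCH and hedgehog list, 3 of the 4 sets that rose peaked at rank 3429, and the fourth was KENNY_CTNNB1_TARGETS_UP at 1.73 in the authors' deposited table. REACTOME_NOTCH_HLH_TRANSCRIPTION_PATHWAY, which holds the transcription factors of NOTCH signalling, fell to -2.00 in the authors' deposited table. In the replication list 6 of 17 and in the G2 and mitosis list 6 of 23 of the sets that rose had this peak, against none of 23 experimental proliferation signatures and none of 14 interferon sets. Of the 8 sets that rose in the list on hypoxia, HIF and glucose metabolism, 1 had it. There LEONARD_HYPOXIA (1.86) and CUI_GLUCOSE_DEPRIVATION (1.98) peaked elsewhere, at 13% of the list, in the authors' deposited table. Among the 62 sets that fell, 5 (8.06%) peaked at rank 3196 and 4 at rank 2766. KEGG_B_CELL_RECEPTOR_SIGNALING_PATHWAY and BIOCARTA_EGF_PATHWAY shared rank 3196, and PID_BCR_5PATHWAY and BIOCARTA_CALCINEURIN_PATHWAY shared rank 2766. KEGG_T_CELL_RECEPTOR_SIGNALING_PATHWAY and PID_CD8_TCR_PATHWAY shared rank 2769. Sets at the same rank share the last gene of their leading edges, so their falls cannot be taken as separate results. How many further genes they share, within or between these ranks, was not measured.

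**Figure D3:**
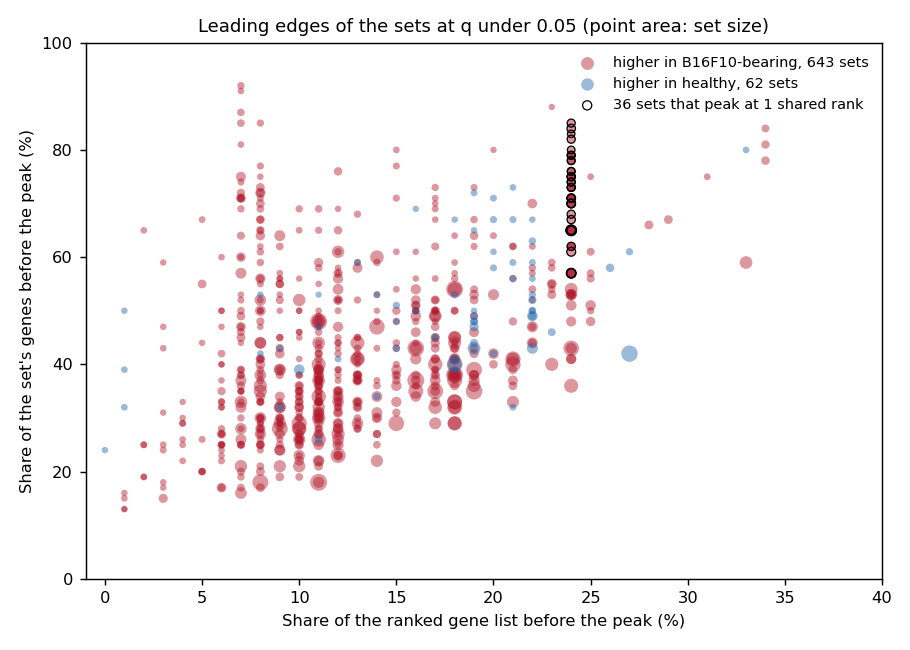
Leading edges of the 705 sets at q under 0.05: share of the ranked gene list before the peak (x axis, percent) against share of the set's genes before it (y axis, percent), with point area rising with set size, red for sets that rose and blue for sets that fell. Rings mark the 36 sets that peak at rank 3429, stacked at 24% of the list; dividing-cell signatures stand at 7% with up to 92% of their genes.

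Of 34 sets on cholesterol, SREBP and lipid metabolism, 3 fell (8.82% against 1.6% of all sets) and 1 rose (2.94% against 16.6%). SREBP factors switch on cholesterol and fatty acid synthesis when sterols are scarce. REACTOME_ACTIVATION_OF_GENE_EXPRESSION_BY_SREBF_SREBP fell to -2.22 and REACTOME_REGULATION_OF_CHOLESTEROL_BIOSYNTHESIS_BY_SREBP_SREBF to -2.06 in the authors' deposited table. These 2 sets peaked at the same rank, 2237, so they share the last gene of their leading edges and cannot be taken as separate results. HORTON_SREBF_TARGETS, the target genes themselves, fell to -2.20 with 73% of 22 genes in the leading edge in the authors' deposited table. REACTOME_CHOLESTEROL_BIOSYNTHESIS, the enzymes of the pathway, had -1.76 and q = 0.0615 in the authors' deposited table and did not pass. KEGG_PPAR_SIGNALING_PATHWAY, the lipid-sensing receptors, was the set that rose, at 1.63 (q = 0.0477) in the authors' deposited table. Glutathione sets, which serve detoxification, rose, with KEGG_GLUTATHIONE_METABOLISM at 2.00 and REACTOME_GLUTATHIONE_CONJUGATION at 1.86 in the authors' deposited table.

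Several small sets that fell did so through a few genes at the far end of the list. REACTOME_DIGESTION_AND_ABSORPTION had the lowest score of all, -2.56, with 39% of 23 genes within 1% of the list, and REACTOME_DIGESTION, intestinal and pancreatic enzymes, had -2.53 with 50% of 18 genes, in the authors' deposited table. Both peaked at rank 94, so they share the last gene of their leading edges and cannot be taken as separate results. NAKAMURA_CANCER_MICROENVIRONMENT_UP had -2.40 with 32% of 22 genes within 1% of the list in the authors' deposited table. REACTOME_COBALAMIN_CBL_VITAMIN_B12_TRANSPORT_AND_METABOLISM had -1.96 with 24% of 17 genes at 0% of the list, as rounded in the authors' deposited table. Over all 62 sets that fell, these included, the median leading edge was 50% of the set within 19% of the list, against 41% within 12% for the sets that rose.

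Further curated pathways that fell came from muscle, clock and messenger biology. REACTOME_MYOGENESIS stood at -2.28 in the authors' deposited table. REACTOME_BMAL1:CLOCK_NPAS2_ACTIVATES_CIRCADIAN_GENE_EXPRESSION (-2.12) and REACTOME_RORA_ACTIVATES_GENE_EXPRESSION (-1.82), both of the circadian clock, fell in the authors' deposited table. KEGG_PHOSPHATIDYLINOSITOL_SIGNALING_SYSTEM (-1.87), BIOCARTA_CALCINEURIN_PATHWAY (-1.82) and REACTOME_FCERI_MEDIATED_CAPLUS2_MOBILIZATION (-1.93), all on lipid or calcium messengers, also fell in the authors' deposited table. Of 130 sets on receptor tyrosine kinase growth factors, 8 rose (6.15% against 16.6% of all sets) and 4 fell (3.08% against 1.6%), with a median of -0.80. BIOCARTA_EGF_PATHWAY (-2.03) was the lowest of the 130 in the authors' deposited table. REACTOME_SUMOYLATION_OF_TRANSCRIPTION_COFACTORS (-2.05) was the 1 of 11 SUMOylation sets that passed in the authors' deposited table. GABRIELY_MIR21_TARGETS, the targets of a single microRNA, fell to -1.87 in the authors' deposited table.

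Some lists held no or few changes. None of 50 sets on extracellular matrix, collagen and integrin passed; PID_INTEGRIN2_PATHWAY, the leukocyte beta 2 integrins, came nearest at 1.56 (q = 0.0719) in the authors' deposited table. None of 4 complement sets passed, with REACTOME_INITIAL_TRIGGERING_OF_COMPLEMENT highest at 1.49 (q = 0.105) in the authors' deposited table. Of 51 neuronal, ion channel and GPCR pathways 1 fell and none rose. Of 50 sets on RAS, RAF and MAPK, 4 rose (8% against 16.6% of all sets) and none fell, and the median was -0.91. Of 5 melanoma sets 2 rose, WINNEPENNINCKX_MELANOMA_METASTASIS_UP (2.51) and KAUFFMANN_MELANOMA_RELAPSE_UP (2.49) in the authors' deposited table, both known for their proliferation and replication genes. Near the threshold, NAKAMURA_TUMOR_ZONE_PERIPHERAL_VS_CENTRAL_UP (q = 0.0496) lay just inside and TAKEDA_TARGETS_OF_NUP98_HOXA9_FUSION_3D_DN (q = 0.0506) just outside on the tumour-bearing side in the authors' deposited table. On the healthy side SU_THYMUS (q = 0.0482) lay just inside and PID_CDC42_REG_PATHWAY (q = 0.0597) just outside in the authors' deposited table.

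Bone marrow of B16F10-bearing and healthy mice, with 3 libraries each, shares no library with the spleen comparison, though the labels do not say whether the animals were the same. There 781 sets (20.1%) rose and 194 (5.0%) fell. Of the sets that rose, 396 were common to both tissues, 61.6% of those in spleen and 50.7% of those in marrow. Of the sets that fell, 27 were common, 43.5% of those in spleen and 13.9% of those in marrow. Across the 3883 sets Pearson's r of the NES was 0.56, a description over sets that share genes. The common changes included REACTOME_NEUTROPHIL_DEGRANULATION (1.93 in spleen, 2.69 in marrow), KEGG_OXIDATIVE_PHOSPHORYLATION (1.85 and 2.44) and KEGG_B_CELL_RECEPTOR_SIGNALING_PATHWAY (-2.25 and -1.87) in the authors' deposited tables.

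Some B cell, megakaryocyte and inflammation sets stood apart between the tissues, and these differences were not tested. Only 2 sets rose in spleen and fell in marrow, and none did the reverse. MORI_MATURE_B_LYMPHOCYTE_DN stood at 2.26 in spleen and -2.11 in marrow, and REACTOME_CELL_SURFACE_INTERACTIONS_AT_THE_VASCULAR_WALL at 1.75 and -1.94, in the authors' deposited tables. MORI_PRE_BI_LYMPHOCYTE_UP had 2.36 in spleen and -1.21 (q = 0.344) in marrow in the authors' deposited tables. TENEDINI_MEGAKARYOCYTE_MARKERS had 1.83 in spleen and -1.34 (q = 0.229) in marrow, and ROSS_AML_OF_FAB_M7_TYPE 2.22 and -1.29 (q = 0.267), in the authors' deposited tables. Over all sets 20.1% rose and 5.0% fell in marrow, against 16.6% and 1.6% in spleen, and the list counts that follow stand beside these shares. Of the 64 Toll-like receptor, NF-kB, TNF and inflammatory sets 26 rose in marrow and 6 in spleen. Of the 40 sets on RNA splicing, processing and transcription machinery 18 rose in marrow and none in spleen. Of the 35 hematopoietic stem and progenitor sets 5 rose and 9 fell in marrow, against 13 and 1 in spleen. REACTOME_DIGESTION had 0.80 (q = 0.846) in marrow in the authors' deposited table.

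**Figure D4:**
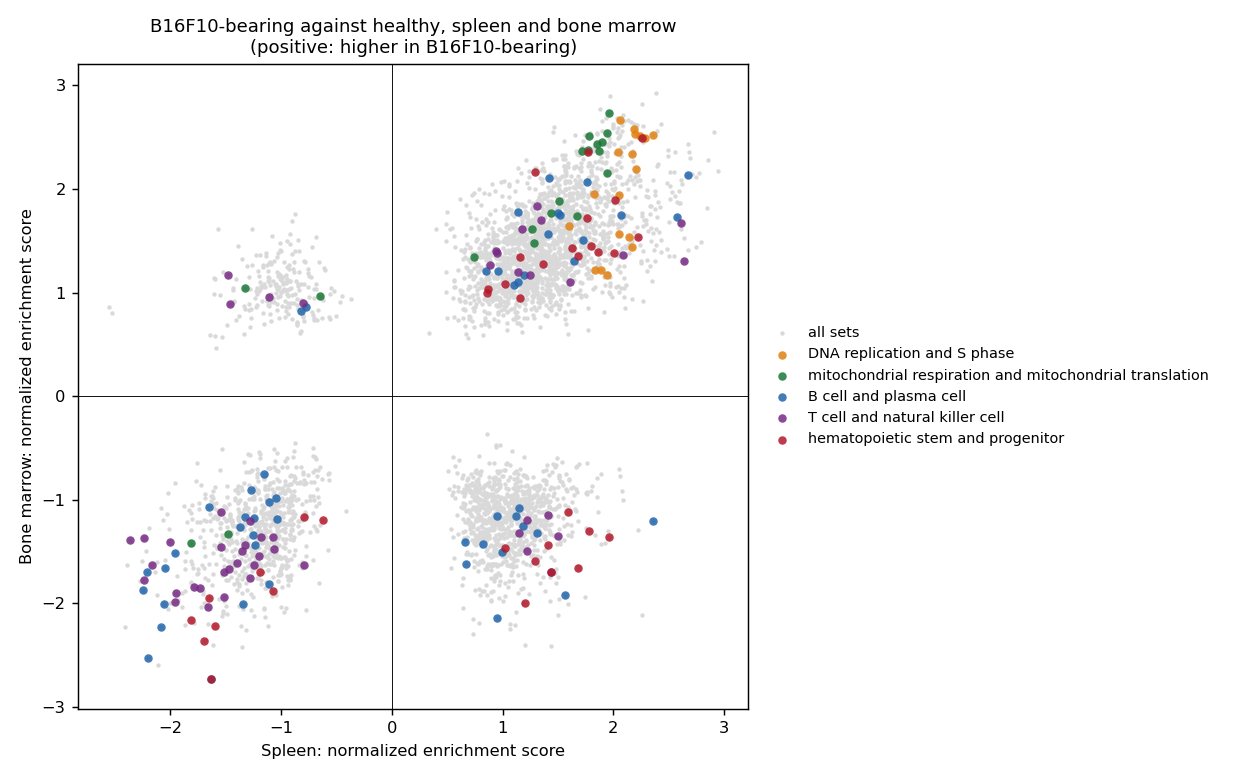
Normalized enrichment score in spleen (x axis) against bone marrow (y axis), B16F10-bearing against healthy, for 3883 gene sets (grey points), with 5 lists in colour. Replication and mitochondrial sets lie mostly at upper right, T cell sets mostly at lower left, and stem and progenitor sets are spread, some of them positive in spleen and negative in marrow.

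In the spleen the YUMM3.3 tumour, from a genetically engineered mouse melanoma, was compared with the same healthy libraries and with the same B16F10-bearing libraries, so the values below stand side by side and are not independent. Against healthy spleen, 607 sets (15.6%) were higher and 206 (5.31%) lower in YUMM3.3-bearing spleen. Between the tumours, 374 sets (9.63%) were higher in B16F10-bearing and 57 (1.47%) higher in YUMM3.3-bearing spleen. For dividing-cell sets, ROSTY_CERVICAL_CANCER_PROLIFERATION_CLUSTER had 2.94 for B16F10 against healthy, 3.55 for YUMM3.3 against healthy and 1.62 (q = 0.0651) for B16F10 against YUMM3.3 in the authors' deposited tables. None of the 18 replication sets passed between the tumours, where their median was 1.13, against 17 for B16F10 and 18 for YUMM3.3 over healthy spleen.

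Some granulocyte, erythroid and mitochondrial sets passed in the direct comparison of tumours. REACTOME_NEUTROPHIL_DEGRANULATION had 1.93 for B16F10 against healthy, -1.54 (q = 0.0969) for YUMM3.3 against healthy and 2.24 for B16F10 against YUMM3.3 in the authors' deposited tables. WELCH_GATA1_TARGETS had 2.31, -1.16 (q = 0.362) and 2.34, and MOOTHA_MITOCHONDRIA 1.94, -0.79 (q = 0.898) and 1.98, in the same order in the authors' deposited tables. Erythroid sets were not uniform: RIZ_ERYTHROID_DIFFERENTIATION had 2.17, 2.49 and 1.18 (q = 0.397) in the authors' deposited tables. Of the 17 erythroid sets 3 were higher and 2 lower in YUMM3.3-bearing than in healthy spleen, where 15.6% of all sets were higher and 5.31% lower. Of the 9 neutrophil and granulocyte sets, 5 were higher in B16F10-bearing than in YUMM3.3-bearing spleen, as were 8 of the 19 mitochondrial sets and 8 of the 22 interferon sets. Over all sets the share higher in B16F10-bearing than in YUMM3.3-bearing spleen was 9.63%. KEGG_B_CELL_RECEPTOR_SIGNALING_PATHWAY had -2.25, 0.72 (q = 0.962) and -1.85 in the authors' deposited tables. REACTOME_ACTIVATION_OF_GENE_EXPRESSION_BY_SREBF_SREBP had -2.22, 1.89 and -2.50, and REACTOME_DIGESTION -2.53, 1.55 (q = 0.0533) and -2.24, in the authors' deposited tables.

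**Figure D5:**
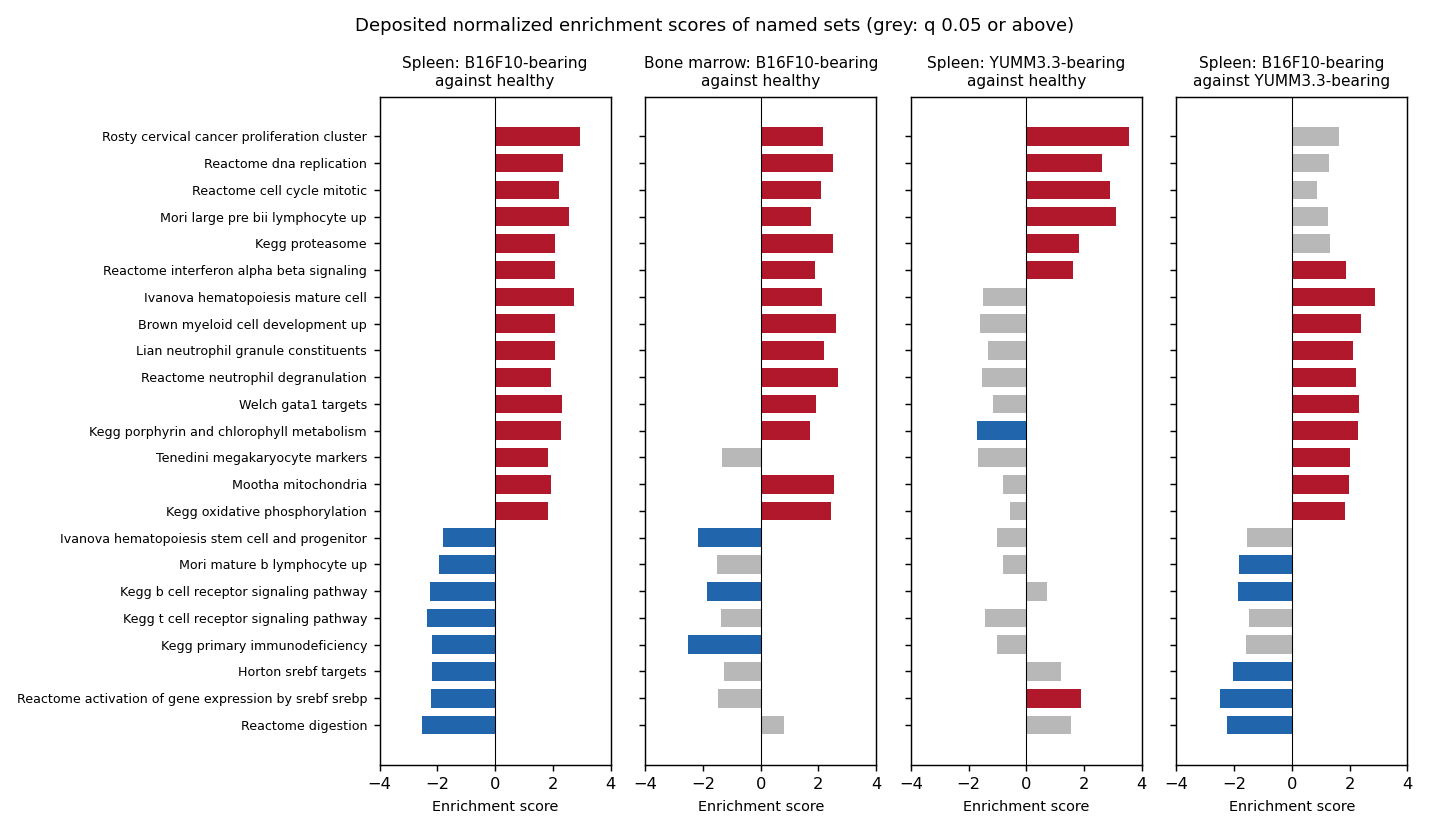
Normalized enrichment scores (x axis, no unit) of 23 named sets (y axis) in 4 comparisons, positive for the first-named group of each panel; red and blue bars pass q under 0.05 and grey bars do not. Dividing-cell sets are positive against healthy in both tumours, whereas the granulocyte, erythroid and mitochondrial sets shown are positive in the panels for B16F10 and negative, mostly in grey, for YUMM3.3 against healthy spleen.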

How the data were processed

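The values are the authors' deposited gene set enrichment reports for RNA-seq of CD3e-depleted spleen cells, 2 libraries per group. Per the submitters' processing notes, FastQC 0.11.8, STAR 2.7.1a, featureCounts 1.6.0, DESeq2 1.22.2 and mm10 were used; the role of each, the gene ranking and the kind of permutation are not given in the sources used here. Per the file headers, the deposited scores are an enrichment score and its normalized form, and each row has a set size, a rank at the peak and leading edge percentages. The deposited p-values and q-values are a nominal p, an FDR q and a FWER p. No values per library or gene were used, and the depth is unknown.

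Both reports of each comparison were joined in Python 3.11.15 with pandas. Scores were signed by report. Sets at a deposited q under 0.05 were counted overall and in 40 lists made from patterns in set names; most lists took no name that ended in DN, and a set could be in several. The members and lists were chosen with earlier results of these data known, and names matched by accident were removed after the names and scores had been seen. No test was made. Counting was tested on simulated data.

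Sets are named by rule: the 15 highest scores per direction, up to 4 per list and direction (2 where none passed), 8 and 4 UP and DN pairs, 5 fullest leading edges, 6 other curated pathways and 2 on each side of the threshold per direction, less some for length and some not reported here. Further sets of the same series or pathway were named after their values were seen: the remaining B cell and blood formation stages, and KEGG and Reactome maps beside a named set.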

Additional observations from a re-analysis of the deposited data

How the results depend on the processing

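The call threshold set the size of the counts more than their balance. Sets higher in B16F10-bearing spleen numbered 643 at the deposited FDR q under 0.05, 1347 at q under 0.25, 404 at q under 0.01, 204 at FWER p under 0.05 and 1068 at nominal p under 0.05. Sets lower numbered 62, 225, 31, 19 and 239 in the same order. The higher sets made up 91.2% of calls at q under 0.05 and between 81.7% and 92.9% under these alternatives. Keeping only sets of 25 to 200 genes left 478 higher and 43 lower. The balance of higher against lower calls turned in 1 list each at q under 0.25, q under 0.01 and nominal p under 0.05 (receptor tyrosine kinase growth factors, from 8 higher and 4 lower to 17 and 19, 0 and 2, and 12 and 13) and at FWER p under 0.05 (transport, digestion and xenobiotic metabolism, from 7 and 2 to 0 and 2), and in none when names ending in DN were kept or 1 set per first word was used.

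Leaving out libraries was not run, as the files give 1 value per set and comparison. No paired analysis was possible because the result comes from deposited scores and from no fit to samples. Depth was not weighed, since no counts were used here.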
